A study of Mus musculus with 12 samples.

Results

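Kupffer cells are the resident macrophages of the liver sinusoids, and monocytes are the blood cells that enter the liver when it is inflamed. A set of 8 genes was followed: 5 Kupffer cell markers (Clec4f, Vsig4, Marco, Timd4 and Cd5l) and 3 monocyte markers (Plac8, F13a1 and Ccr2). They were chosen by name, with earlier results of these data known. All 8 were measured among 19938 genes, each by a single probe set that carries 1 gene symbol. Liver RNA of male mice was hybridised to 12 Affymetrix whole-transcript arrays in 3 groups of 4. Whether each array holds a separate animal is not stated.

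The S534A LPS group held mice of the C57Bl6/J background that are homozygous for S534A, a serine-to-alanine substitution in the NF-kB protein p65 (gene Rela), and received lipopolysaccharide (LPS) at 1 µg/kg. The WT LPS group held wild-type C57Bl6/J mice given the same dose, and the WT untreated group wild-type C57Bl6/J mice that received none. The substitution was knocked in through PTL1 embryonic stem cell clones, the selection cassette was removed with Flipase, and the line was bred to homozygosity after 5 backcrosses. It is a germline allele and is not limited to macrophages. The labels state neither age, nor the route of LPS, nor how long after LPS livers were collected. No S534A livers without LPS entered the comparisons, and whether a genotype difference was there before LPS cannot be told apart from one that arose after it. Titles of the untreated arrays follow a different pattern, and a separate array run cannot be told apart from the LPS treatment.

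Kupffer cells settle in the liver before birth, renew themselves there and clear bacteria, LPS and dying cells from portal blood. Monocytes leave the bone marrow through the chemokine receptor Ccr2 and can take the place of Kupffer cells that are lost. In whole liver, fewer cells of a type and less RNA per cell cannot be told apart.

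The values are log2 expression after RMA, and a difference of 1 is a doubling. The 8 hepatocyte markers had mean log2 levels of 13.39 to 13.51 on the 12 arrays. Of the Kupffer cell and liver macrophage list, 23 genes were measured, and their mean log2 level lay between 8.55 and 9.47. Transcripts of the exocrine pancreas were high on S534A LPS replicate 3 and WT LPS replicates 2 and 3, with mean log2 levels over 10 pancreas genes of 9.64, 8.57 and 6.87, against 5.92 to 6.36 on the other 9 arrays. WT LPS replicate 2 also had the lowest weight of the 12 arrays when limma estimated array weights (0.221). The other arrays with pancreas transcripts had weights of 2.63 (WT LPS replicate 3, the highest of all) and 1.62 (S534A LPS replicate 3). WT untreated replicate 4, where pancreas transcripts were low, had 0.279. Leaving out the arrays with pancreas transcripts kept only replicates 1 and 4 of the WT LPS group. Rela, which carries the substitution, had a mean log2 value of 11.20 ± 0.06 in S534A LPS livers, 11.11 ± 0.08 in WT LPS livers and 9.96 ± 0.14 in WT untreated livers (SD, n = 4 each). The probe set measures transcript level and cannot see the substitution.

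After LPS the Kupffer cell markers parted. Clec4f, Vsig4 and Cd5l were lower in both LPS groups than in untreated livers, Marco was higher, and Timd4 did not pass the test. All 3 monocyte markers were higher. In WT LPS against WT untreated livers 4 of the 8 genes were called higher and 3 lower by limma (Benjamini-Hochberg adjusted p under 0.05, with all 19938 genes in the adjustment), where 25% of all genes were called, 9.34% higher and 15.6% lower. In S534A LPS against WT untreated livers the counts were also 4 higher and 3 lower, where 26.9% of all genes were called, 11% higher and 16% lower. The last comparison differs in both genotype and treatment, and it shares its untreated arrays with the WT comparison. Between the LPS-treated genotypes 0 of the 8 genes were called.

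**Figure D1:**
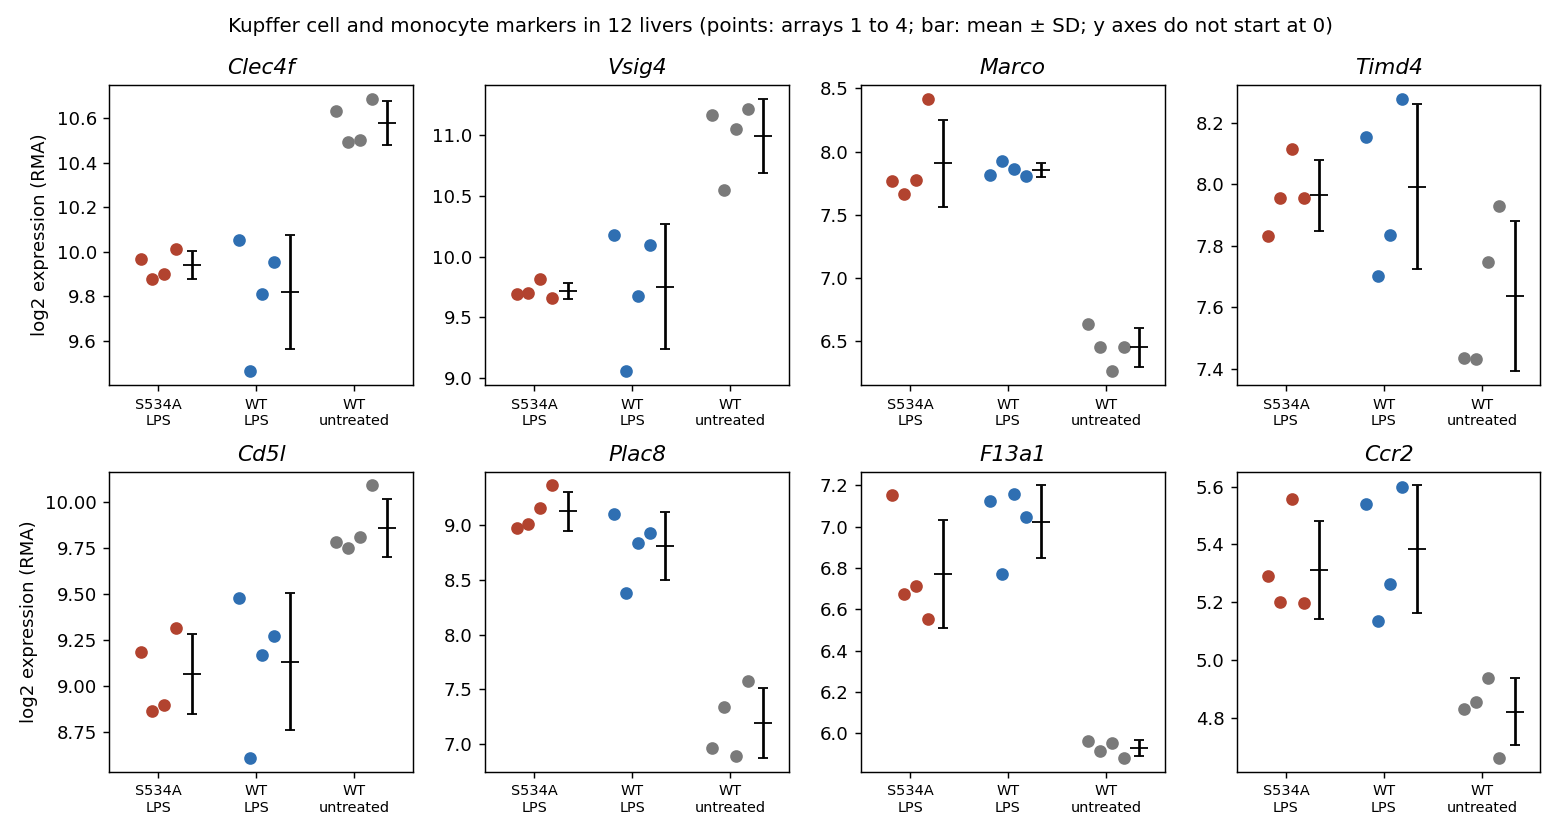
Log2 expression (RMA, y axis) of the 8 markers on each array of the S534A LPS, WT LPS and WT untreated groups, with group mean and SD (n = 4). Clec4f, Vsig4 and Cd5l lie below the untreated arrays in both LPS groups, Marco, Plac8, F13a1 and Ccr2 lie above them, and Timd4 overlaps.

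Clec4f encodes a C-type lectin that binds galactose-bearing glycolipids and, in mice, is confined to Kupffer cells. It read 9.97, 9.88, 9.90 and 10.01 in S534A LPS livers, 10.05, 9.46, 9.81 and 9.95 in WT LPS livers, and 10.63, 10.49, 10.50 and 10.69 in WT untreated livers. Every LPS array lay below every untreated array, and the S534A LPS arrays all lay within the range of the WT LPS arrays. Clec4f fell by 0.76 on the log2 scale in WT LPS against WT untreated livers (SE 0.11, adjusted p = 0.000203), which is 1.69-fold lower. In S534A LPS against WT untreated livers it fell by 0.64 (SE 0.11, adjusted p = 0.000603).

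Vsig4 encodes CRIg, the complement receptor with which Kupffer cells take C3-coated bacteria out of the blood. It read 9.69, 9.70, 9.81 and 9.66 in S534A LPS livers, 10.18, 9.05, 9.67 and 10.10 in WT LPS livers, and 11.17, 10.55, 11.05 and 11.22 in WT untreated livers. The LPS and untreated arrays did not overlap, WT LPS replicate 2 was lowest of all and untreated replicate 2 lowest of its group. Of the members called lower, Vsig4 had the largest difference. It fell by 1.25 in WT LPS against WT untreated livers (SE 0.21, adjusted p = 0.000871), or 2.37-fold, and by 1.28 in S534A LPS against WT untreated livers (SE 0.21, adjusted p = 0.000576), or 2.43-fold. Without WT LPS replicate 2 the difference in WT livers was -1.01, and without the 3 arrays with pancreas transcripts -0.86 (adjusted p = 0.00589).

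Cd5l encodes a secreted scavenger receptor cysteine-rich protein, AIM, which protects macrophages from apoptosis and is a target of the nuclear receptor LXR. It read 9.18, 8.86, 8.90 and 9.32 in S534A LPS livers, 9.48, 8.61, 9.17 and 9.27 in WT LPS livers, and 9.78, 9.75, 9.81 and 10.09 in WT untreated livers. The LPS arrays lay below the untreated ones, with the closest approach between WT LPS replicate 1 and untreated replicate 2. Cd5l fell by 0.73 in WT LPS against WT untreated livers (SE 0.17, adjusted p = 0.00569), and by 0.80 in S534A LPS against WT untreated livers (SE 0.17, adjusted p = 0.00282). In WT livers its call was the weakest of those 7 without the 3 arrays with pancreas transcripts (log2 difference -0.49, adjusted p = 0.0421).

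Marco encodes a class A scavenger receptor with a collagen-like stalk that binds bacteria and LPS on macrophages. It read 7.77, 7.67, 7.78 and 8.42 in S534A LPS livers, 7.81, 7.92, 7.86 and 7.80 in WT LPS livers, and 6.64, 6.45, 6.26 and 6.46 in WT untreated livers. All 8 LPS arrays lay above all 4 untreated arrays, and S534A LPS replicate 4 stood above the other LPS arrays. Marco was 2.64-fold higher in WT LPS than in WT untreated livers (log2 difference 1.40 ± 0.14, SE; adjusted p = 1.06e-05). In S534A LPS against WT untreated livers it was 2.74-fold higher (1.46 ± 0.14; adjusted p = 5.66e-06). Of the 5 Kupffer cell markers Marco was thus the single one called higher.

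Timd4 encodes TIM-4, a phosphatidylserine receptor for dying cells that marks resident macrophages of embryonic origin. It read 7.83, 7.96, 8.11 and 7.95 in S534A LPS livers, 8.15, 7.70, 7.83 and 8.28 in WT LPS livers, and 7.44, 7.43, 7.75 and 7.93 in WT untreated livers. The groups overlapped, since untreated replicate 4 lay above 2 of the WT LPS arrays and 1 of the S534A LPS arrays. The log2 difference was 0.36 in WT LPS against WT untreated livers (95% interval 0.05 to 0.66; limma adjusted p = 0.0826) and 0.33 in S534A LPS against WT untreated livers (0.03 to 0.63; limma adjusted p = 0.106). Both estimates were above 0, where those of Clec4f, Vsig4 and Cd5l were below it. The WT estimate passed without WT LPS replicate 2 (0.45; adjusted p = 0.0306), without untreated replicate 4 (0.45; adjusted p = 0.0316) and without the 3 arrays with pancreas transcripts (0.58; adjusted p = 0.0184). The S534A estimate passed without untreated replicate 4 (0.43; adjusted p = 0.0393).

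The promoters of the 3 Kupffer cell markers that fell and of Marco, which rose, are shown because these genes were listed together and moved in opposite directions. Whether their transcripts came from the same cells was not tested. The sequences are from RefSeq (GRCm38.p6), 250 bases before to 50 after the annotated start, 5′ to 3′ on the strand of the gene. Capitals mark GAGGAA on either strand, a purine-rich word of the kind bound by PU.1, the master regulator of macrophage genes.
Clec4f, chr6:83656067-83656366, minus strand: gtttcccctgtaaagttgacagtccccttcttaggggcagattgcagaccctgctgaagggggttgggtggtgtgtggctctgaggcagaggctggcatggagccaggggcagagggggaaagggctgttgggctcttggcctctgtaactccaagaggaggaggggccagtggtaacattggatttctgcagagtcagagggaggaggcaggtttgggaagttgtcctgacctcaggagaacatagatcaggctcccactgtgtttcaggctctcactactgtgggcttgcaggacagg
Vsig4, chrX:96293389-96293688, minus strand: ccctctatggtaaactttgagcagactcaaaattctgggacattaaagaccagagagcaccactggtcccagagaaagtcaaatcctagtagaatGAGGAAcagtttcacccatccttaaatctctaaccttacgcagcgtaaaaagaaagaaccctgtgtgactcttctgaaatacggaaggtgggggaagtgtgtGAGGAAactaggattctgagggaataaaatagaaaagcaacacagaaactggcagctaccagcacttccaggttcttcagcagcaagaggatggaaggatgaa
Cd5l, chr3:87357631-87357930, plus strand: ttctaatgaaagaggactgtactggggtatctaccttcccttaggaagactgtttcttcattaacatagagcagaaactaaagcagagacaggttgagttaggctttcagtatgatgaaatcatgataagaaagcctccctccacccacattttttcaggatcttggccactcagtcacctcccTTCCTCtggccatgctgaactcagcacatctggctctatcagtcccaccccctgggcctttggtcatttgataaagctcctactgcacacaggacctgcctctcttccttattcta
Marco, chr1:120504975-120505274, minus strand: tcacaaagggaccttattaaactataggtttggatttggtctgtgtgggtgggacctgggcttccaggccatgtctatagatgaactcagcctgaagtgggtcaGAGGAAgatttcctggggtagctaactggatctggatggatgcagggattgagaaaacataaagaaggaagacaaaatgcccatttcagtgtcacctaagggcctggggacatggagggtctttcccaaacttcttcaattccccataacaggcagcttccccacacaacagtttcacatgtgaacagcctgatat

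With the start site as position 0, the word stood at -155 to -150 and at -53 to -48 in Vsig4, at -66 to -61 on the opposite strand in Cd5l, and at -146 to -141 in Marco. The Clec4f window held none. All 8 members matched the promoter table, 6 with 1 window and 2 (Plac8 and F13a1) with 2. Of these 10 windows 6 held GAGGAA, against 28.3% of the 32851 windows in the table. The NF-kB consensus (kappaB motif, either strand) was in 0 of the 10 windows and in 8.46% of all windows. TGANTCA, the AP-1 word, was in 0 of the 10 and in 7.81% of all, and the core of the interferon-stimulated response element in 0 of the 10 and in 3.44% of all. A match describes the letters alone, and windows without one do not speak to sites elsewhere.

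Each of the monocyte markers rose after LPS. Plac8 encodes a small cysteine-rich protein abundant in monocytes and also made by neutrophils and other leukocytes. It read 8.98, 9.01, 9.16 and 9.37 in S534A LPS livers, 9.10, 8.38, 8.84 and 8.93 in WT LPS livers, and 6.96, 7.34, 6.90 and 7.58 in WT untreated livers. The LPS and untreated arrays were fully apart, with WT LPS replicate 2 nearest to the untreated range. Plac8 was 3.07-fold higher in WT LPS than in WT untreated livers (log2 difference 1.62 ± 0.17, SE; adjusted p = 1.93e-05) and 3.82-fold higher in S534A LPS than in WT untreated livers (1.93 ± 0.17; adjusted p = 2.86e-06). Of the 8 members it had the largest difference in either comparison.

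F13a1 encodes the A subunit of coagulation factor XIII, the transglutaminase that cross-links fibrin, and is made by monocytes, some tissue macrophages and platelet precursors. It read 7.15, 6.68, 6.71 and 6.55 in S534A LPS livers, 7.13, 6.77, 7.16 and 7.05 in WT LPS livers, and 5.96, 5.92, 5.95 and 5.88 in WT untreated livers. The untreated arrays lay close together, with an SD of 0.04, and every LPS array was higher. F13a1 was 2.14-fold higher in WT LPS than in WT untreated livers (log2 difference 1.10 ± 0.12, SE; adjusted p = 2.15e-05) and 1.80-fold higher in S534A LPS than in WT untreated livers (0.84 ± 0.12; adjusted p = 0.000147). S534A LPS replicate 1 was well above the rest of its group. That array also had the highest mean log2 level of the large peritoneal macrophage list in its group (7.60, against 7.46 to 7.48 on the other 3). It was highest of its group for the monocyte, neutrophil, platelet, B cell, dendritic cell, and T and NK cell lists as well, but not for the Kupffer cell list. In the WT LPS group the large peritoneal macrophage list was highest on replicate 2 (7.55), where F13a1 was lowest.

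Ccr2 encodes the receptor for the chemokines Ccl2 and Ccl7. It read 5.29, 5.20, 5.56 and 5.20 in S534A LPS livers, 5.54, 5.14, 5.26 and 5.60 in WT LPS livers, and 4.83, 4.86, 4.94 and 4.66 in WT untreated livers. The groups were apart, but the values are low: the mean of Ccr2 over the 12 arrays stood at percentile 19.2 of all genes, and a dim probe set can understate a difference. Ccr2 was 1.48-fold higher in WT LPS than in WT untreated livers (log2 difference 0.56 ± 0.11, SE; adjusted p = 0.00265) and 1.40-fold higher in S534A LPS than in WT untreated livers (0.49 ± 0.11; adjusted p = 0.00563).

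In both comparisons with untreated livers, 7 of the 8 members had groups that did not overlap in range, where 24.6% of all genes did so in WT LPS against WT untreated livers and 31.3% in S534A LPS against WT untreated livers. The median log2 difference of the 8 members was 0.46 in the WT comparison and 0.41 in the S534A comparison, beside medians over all genes of 0.02 and 0.03. These medians average members that moved in opposite directions.

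**Figure D2:**
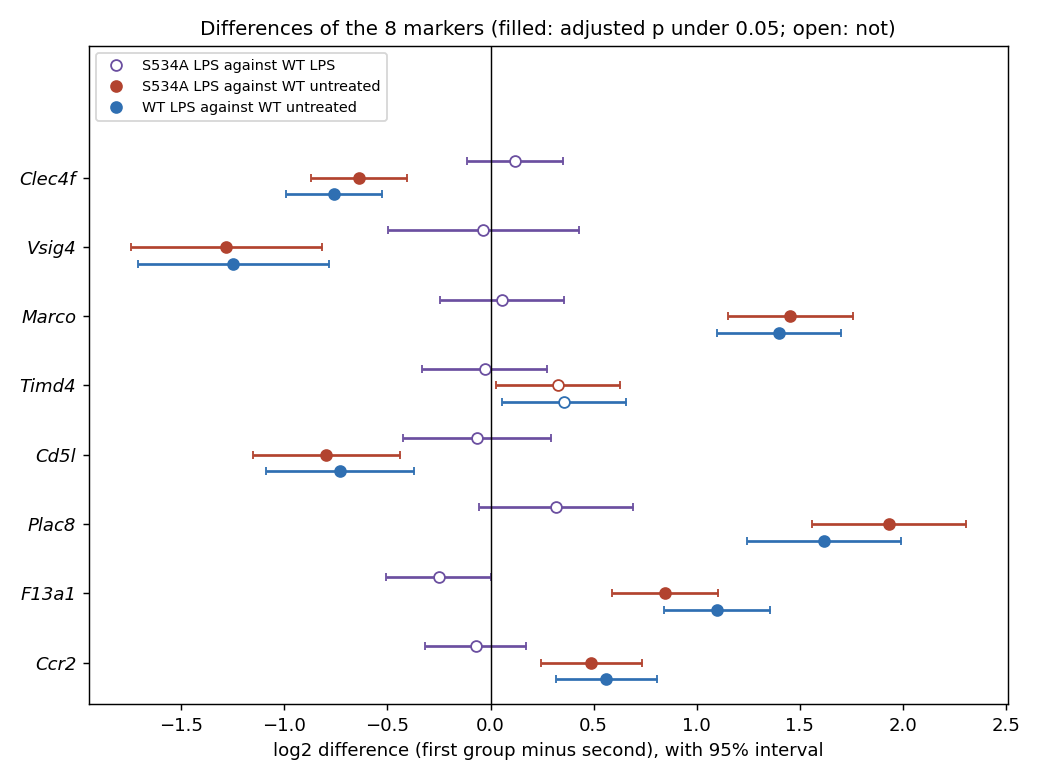
Log2 difference (x axis, first group minus second, with limma's 95% interval) of each marker in the 3 comparisons; filled points passed the test. The intervals of S534A LPS against WT LPS all include 0, while 7 of the 8 markers are filled in both comparisons with untreated livers.

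The comparison of S534A LPS with WT LPS livers asks whether the p65 substitution altered these markers after LPS. None of the 8 members was called (limma, 0 at an adjusted p under 0.05 and 0 at an unadjusted p under 0.05), where 0.171% of all genes were called (0.166% higher and 0.00502% lower) and 5.76% had an unadjusted p under 0.05. The median difference of the members was -0.03, beside 0.01 over all genes. Members whose arrays did not overlap between the genotypes numbered 0 of 8, where 4.43% of all genes did not overlap (3.25% higher and 1.18% lower).

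For Clec4f the log2 difference was 0.12 (95% interval -0.11 to 0.35), for Vsig4 -0.03 (-0.50 to 0.43), and for Marco 0.06 (-0.25 to 0.36). For Timd4 it was -0.03 (-0.33 to 0.27), for Cd5l -0.07 (-0.42 to 0.29) and for Ccr2 -0.07 (-0.32 to 0.17). These intervals are those of the 12 arrays. Without the 3 arrays with pancreas transcripts the differences were -0.46 ± 0.17 for Vsig4, -0.34 ± 0.09 for Ccr2, -0.30 ± 0.15 for Timd4 and -0.25 ± 0.15 for Cd5l (SE), all lower in S534A LPS livers and none called (adjusted p from 0.706 to 0.900), and that of Ccr2 lay outside its 12-array interval. This setting kept WT LPS replicates 1 and 4, which were the highest WT LPS arrays for each of these genes. Of the S534A LPS group it kept replicates 1, 2 and 4. The part of pancreas RNA, or of which arrays were kept, in these shifts was not tested. The members with the smallest p were F13a1 and Plac8, in opposite directions.

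F13a1 averaged 6.77 ± 0.26 in S534A LPS livers and 7.03 ± 0.18 in WT LPS livers (SD, n = 4 each). Its log2 difference was -0.25 (95% interval -0.51 to 0.00; limma adjusted p = 0.889), and without S534A LPS replicate 1 it was -0.38 (adjusted p = 0.238). The smallest adjusted p of F13a1 in any setting tried was 0.0854, with array weights. Plac8 averaged 9.13 ± 0.18 in S534A LPS livers and 8.81 ± 0.31 in WT LPS livers (SD, n = 4 each). Its log2 difference was 0.32 (-0.06 to 0.69; limma adjusted p = 0.994), 0.17 without WT LPS replicate 2 and 0.10 without the 3 arrays with pancreas transcripts. Neutrophil markers moved in the same comparison: 2 of 12 were called higher in S534A LPS livers, Retnlg (0.68 ± 0.10; adjusted p = 0.0158) and S100a9 (0.52 ± 0.09; adjusted p = 0.0385), and 0 lower. The mean log2 level of the 12 neutrophil genes ran from 6.87 to 7.15 in S534A LPS livers, 6.57 to 6.80 in WT LPS livers and 5.49 to 5.66 in WT untreated livers. In untreated livers the dimmest of them were Retnlg (4.74), Ly6g (4.77) and Mmp8 (4.88). The part of neutrophil RNA in the Plac8 values was not tested.

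Between the LPS groups the spread of some members differed. Vsig4 had an SD of 0.07 in S534A LPS livers and 0.52 in WT LPS livers, and Clec4f had an SD of 0.06 in S534A LPS livers and 0.26 in WT LPS livers. Marco went the other way, with an SD of 0.35 in S534A LPS livers and 0.06 in WT LPS livers. In all, 6 of the 8 members had the larger SD in the WT LPS group, a share near the 73.3% of all genes. WT LPS replicate 2 was the lowest WT LPS array for 7 of the 8 members, all but Marco, for which it was the highest, and it was the lowest of the 4 for 37.7% of all genes. That array carried pancreas transcripts, and their part in its low values was not tested. Without it the 3 members that fell and the 4 that rose after LPS kept their calls.

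**Figure D3:**
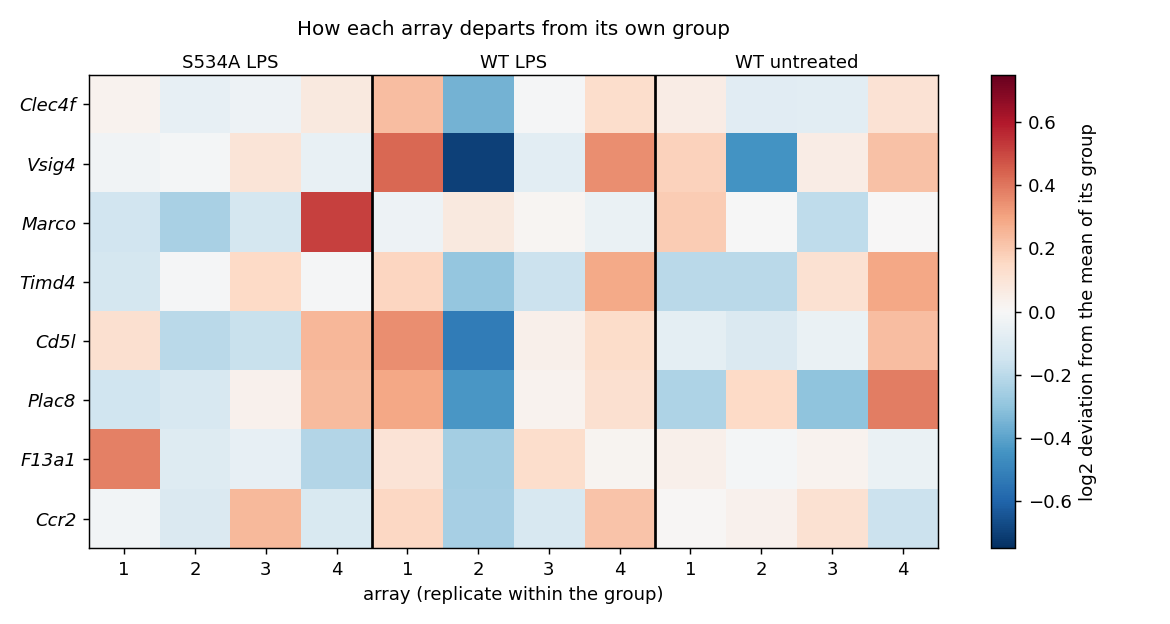
Log2 deviation of each array from the mean of its own group (colour), for the 8 markers (rows) on the 12 arrays (columns, by group and replicate). WT LPS replicate 2 is low for every marker but Marco, and S534A LPS replicate 4 is high for Marco.

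Clec4f, Vsig4 and Cd5l followed each other across the 12 arrays. Ranked by Pearson correlation with Clec4f among 19937 other genes, Vsig4 was at position 21 (r = 0.97). Cd5l was at position 81 in the same ranking (r = 0.95), and Clec4f at position 15 by likeness to Cd5l. Cd5l and Vsig4 had r = 0.93. Here Cd5l was at position 285 by likeness to Vsig4, and Vsig4 at position 68 by likeness to Cd5l. The deviations of these 3 genes from group means also ran together, with r = 0.89 for Clec4f and Vsig4, r = 0.93 for Clec4f and Cd5l and r = 0.74 for Vsig4 and Cd5l. This was not limited to these 3 genes, since Timd4 had r = 0.77 with Vsig4, and Plac8 had r = 0.77 with Cd5l and r = 0.73 with Clec4f. WT LPS replicate 2, with pancreas transcripts and the lowest weight, was the lowest WT LPS array for each of these genes. The r values were not computed without it. In S534A LPS livers Vsig4 was highest on replicate 3, and Clec4f and Cd5l on replicate 4. The deviations of Marco correlated with those of Clec4f at r = 0.12 and with those of Vsig4 at r = -0.14. Plac8 and Marco had r = 0.94 over the arrays and r = 0.24 for the deviations from group means. Among the monocyte markers the deviations had r = 0.02 for Plac8 and F13a1, r = 0.18 for Plac8 and Ccr2, and r = 0.32 for F13a1 and Ccr2. These correlations describe 12 arrays, which share 3 groups and the step between LPS and untreated livers.

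The genes most like each member across the 12 arrays were named by the same measure, with no claim on shared control. For Clec4f they were Cab39l, Bri3bp and Sft2d2 (r = 0.98 each), and for Vsig4 Zfand1, Colec11 and Csf1r (0.98 each). Csf1r encodes the receptor for the macrophage growth factor CSF1, and it had a log2 difference of -0.67 in S534A LPS and -0.64 in WT LPS livers against untreated ones (adjusted p = 0.00108 and 0.00182). For Cd5l they were Eif2ak4, Sdc3 and Arrb2 (0.97 each). For Marco they were Atp11a (0.98), Irf7 and Irf9 (0.97 each), and both Irf genes encode transcription factors of the interferon response. For Timd4 they were Zkscan6 and Fcgr4 (0.90 each) and Wfdc17 (0.89). For Plac8 they were Ifi213, H2-T24 and Ep400 (0.99 each), for F13a1 Pcyox1, Hnrnpm and Atg16l2 (0.98 each), and for Ccr2 Ncf4 (0.94), Ecscr (0.94) and Sec22a (0.93). Fcgr4 encodes an activating IgG receptor, and Ncf4 a subunit of the phagocyte NADPH oxidase.

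The other genes of the Kupffer cell and liver macrophage list put the members in their setting. Of its 23 measured genes, members included, 2 were called higher and 9 lower in WT LPS against WT untreated livers (median -0.24), and 2 higher and 11 lower in S534A LPS against WT untreated livers (median -0.24). Leaving out the 5 members, 1 of 18 was higher and 6 lower in the WT comparison, where 9.34% of all genes were called higher and 15.6% lower. The largest change was that of Slc40a1, the iron exporter ferroportin, with a log2 difference of -2.76 ± 0.19 in S534A LPS and -2.82 ± 0.19 in WT LPS livers against untreated ones (adjusted p = 2.74e-07 and 2.92e-07). Mrc1, the mannose receptor that sinusoidal endothelium also expresses, had -1.08 ± 0.15 and -0.97 ± 0.15, and Clec1b, the podoplanin receptor CLEC-2, -0.95 ± 0.16 and -0.86 ± 0.16, in the same order. Il18bp, the interleukin-18 binding protein, had 1.19 ± 0.08 and 1.13 ± 0.08 and is the gene beside Marco that rose. The pan-macrophage genes Adgre1, an adhesion receptor, and Cd68 were not called in any of the 3 comparisons. Csf1r, on the same list, was called lower in both, at -0.67 ± 0.12 in S534A LPS and -0.64 ± 0.12 in WT LPS livers against untreated ones. Whether macrophage content changed cannot be told from these genes. Between the genotypes 0 of the 23 genes were called (median -0.01), and the 2 non-members with the smallest p were Cfp (0.23 ± 0.16; adjusted p = 1) and Pltp (0.19 ± 0.16; adjusted p = 1).

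Regulators of Kupffer cells were called more often higher than lower. Of 16 measured transcription factors and niche signals 5 were called higher and 1 lower in WT LPS against WT untreated livers, and 6 higher and 3 lower in S534A LPS against WT untreated livers. Of all genes 9.34% were called higher and 15.6% lower in the WT comparison, and 11% and 16% in the S534A comparison. The counts called lower are under or near those shares. The median log2 difference of the 16 genes was -0.06 in the WT comparison and 0.11 in the S534A comparison, beside 0.02 and 0.03 over all genes. In the WT comparison the list was thus not shifted upward as a whole. Spic, a PU.1 relative needed for iron-recycling macrophages, averaged 8.80 ± 0.09 in S534A LPS livers, 8.43 ± 0.39 in WT LPS livers and 5.83 ± 0.29 in WT untreated livers (SD, n = 4 each). Its log2 difference was 2.98 ± 0.18 in S534A LPS against WT untreated livers, and it was 6.06-fold higher in WT LPS than in WT untreated livers (limma adjusted p = 2.88e-07). Irf8 (1.22 ± 0.07) and Csf1 (1.07 ± 0.08) rose in the same comparison, and Gdf2, which encodes the niche signal BMP9, fell by 1.08 (SE 0.15). Between the genotypes 0 of the 16 passed. The 2 with the smallest p were Csf1 (0.38 ± 0.08, limma adjusted p = 0.126) and Irf8 (0.25 ± 0.07, limma adjusted p = 0.286). Their arrays did not overlap between the genotypes, as was so for 4.43% of all genes. They were picked by smallest p, so the lack of overlap is not separate support.

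Of 14 measured monocyte genes, members included, 8 were called higher and 0 lower in WT LPS against WT untreated livers (median 0.50), and 10 higher and 0 lower in S534A LPS against WT untreated livers (median 0.51). Beyond the 3 members these were 5 and 7 of 11, where 9.34% and 11% of all genes were called higher. Ms4a4c rose by 2.33 ± 0.18 in S534A LPS and 2.11 ± 0.18 in WT LPS livers against untreated ones, and Vcan, the proteoglycan versican, by 1.75 ± 0.11 and 1.54 ± 0.11. The calcium-binding protein gene S100a4 rose by 0.53 ± 0.06 and 0.44 ± 0.06, and Itgam, which encodes the integrin CD11b that neutrophils also carry, by 0.81 ± 0.09 and 0.63 ± 0.09. Of 4 markers of patrolling monocytes, Spn, which encodes CD43, was called higher in S534A LPS livers (0.30 ± 0.08; adjusted p = 0.0188) and not in WT LPS livers (0.16 ± 0.08; adjusted p = 0.186), both against untreated ones. The other 3 were called in neither group: Cx3cr1 had 0.13 and 0.16, Ace -0.01 and 0.02, and Treml4 -0.09 and -0.17. Between the genotypes 0 of the 14 were called (median 0.08); of the non-members Vcan (0.22 ± 0.11; adjusted p = 0.927) and Itgam (0.18 ± 0.09; adjusted p = 0.932) had the smallest p.

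**Figure D4:**
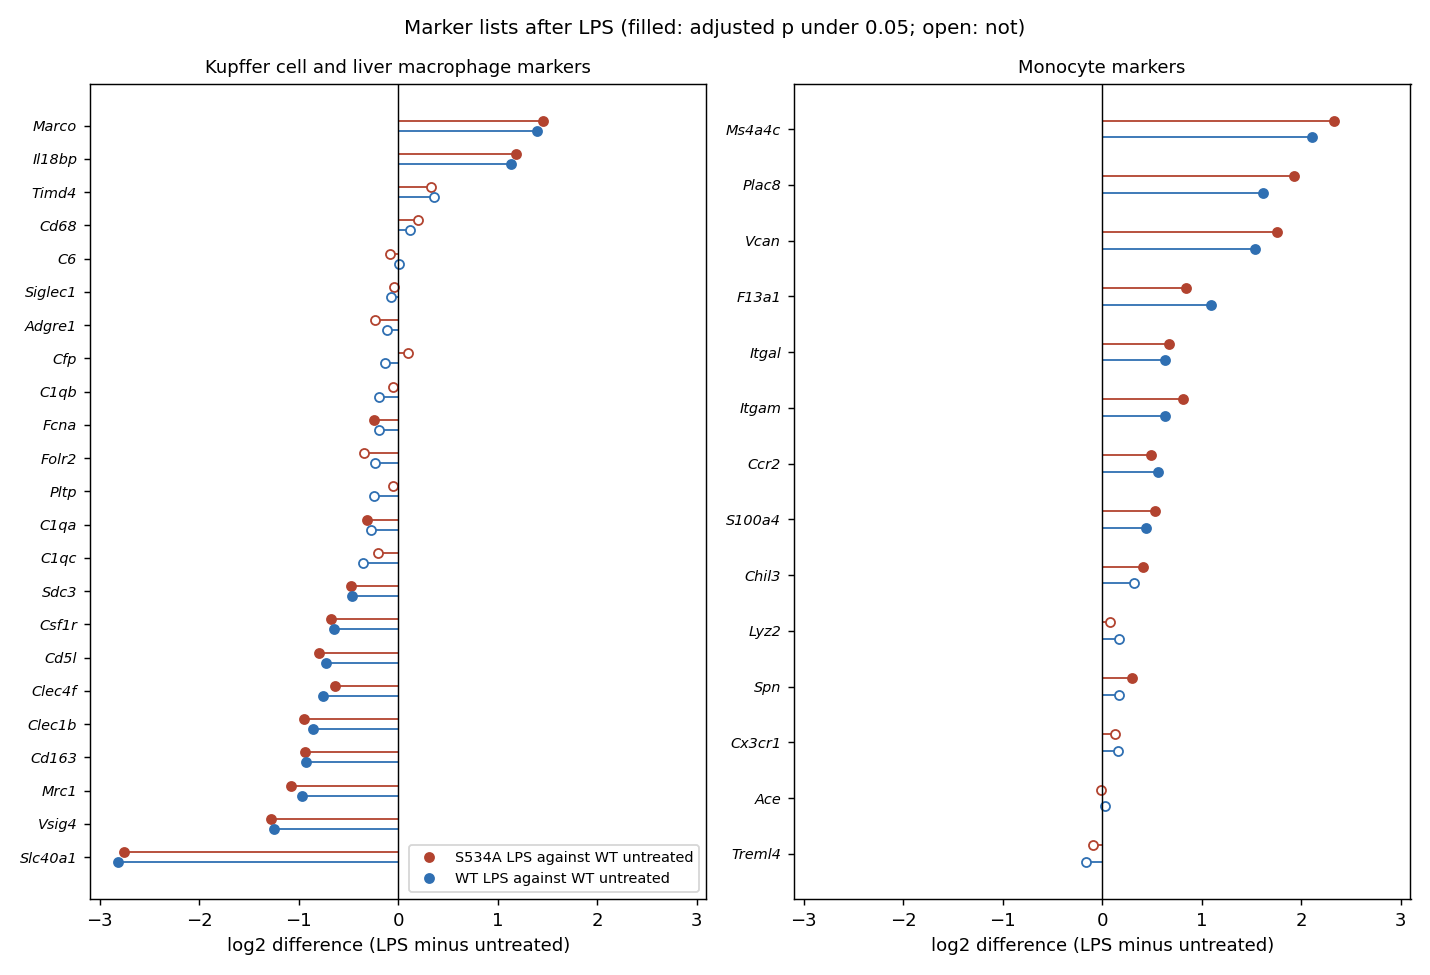
Log2 difference from WT untreated livers (x axis) of the genes of the Kupffer cell list and the monocyte list (rows), for S534A LPS and WT LPS; filled points passed the test. Kupffer cell genes run from Slc40a1 at -2.82 to Marco at 1.40 in WT LPS livers, and no monocyte gene was called lower.

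Ccl2 and Ccl7, ligands of Ccr2, rose after LPS. Ccl2 averaged 10.33 ± 0.28 in S534A LPS livers, 9.58 ± 0.21 in WT LPS livers and 6.38 ± 0.18 in WT untreated livers (SD, n = 4 each). Ccl7 averaged 9.27 ± 0.25 in S534A LPS livers, 8.36 ± 0.38 in WT LPS livers and 6.09 ± 0.20 in WT untreated livers (SD, n = 4 each). In WT LPS against WT untreated livers the log2 difference was 3.20 ± 0.14 for Ccl2 (limma adjusted p = 4.24e-09) and 2.27 ± 0.18 for Ccl7 (limma adjusted p = 1.14e-06). The chemokines Ccl8 and Ccl12 had smaller differences from untreated livers. Ccl8 had 0.22 ± 0.06 in S534A LPS and 0.33 ± 0.06 in WT LPS livers, called in both. Ccl12 had 0.27 ± 0.08 in S534A LPS livers, called, and 0.08 ± 0.08 in WT LPS livers, not called. Ccl8 and Ccl12 were dim in untreated livers (4.76 and 4.77), and a dim probe set can understate a difference. In S534A LPS against WT LPS livers Ccl2 read 0.74 ± 0.14 higher and Ccl7 0.91 ± 0.18 higher without passing the test (limma adjusted p = 0.0787 for each). The arrays of the genotypes did not overlap for either gene, as was so for 4.43% of all genes. Of the 5 chemokines listed, 3 were called higher in WT LPS and 4 in S534A LPS against WT untreated livers, and 0 between the genotypes. The shares of all genes called higher were 9.34%, 11% and 0.166%, in the same order.

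Markers of other cells that hold some of these transcripts were counted beside the members. In WT LPS against WT untreated livers 9 of 12 neutrophil genes were called higher and 0 lower, 2 of 5 platelet genes higher (Itgb3 and Ppbp), 2 of 6 large peritoneal macrophage genes higher (Prg4 and Gata6), and 2 of 10 T and NK cell genes higher (Gzma and Ncr1). B cell genes had 1 of 5 lower (Cd79b), dendritic cell genes 1 of 8 lower (Clec9a), hepatocyte genes 1 higher and 1 lower of 8 (Hnf4a and Ttr), and pancreas genes 0 of 10 called. Of all genes 25% were called in this comparison, 9.34% higher and 15.6% lower. The B cell, dendritic cell and hepatocyte counts lie near these shares. The platelet list ran from 7.37 to 7.43 in S534A LPS livers, 7.21 to 7.37 in WT LPS livers and 6.67 to 6.95 in WT untreated livers. The large peritoneal macrophage list ran from 7.46 to 7.60 in S534A LPS livers, 7.33 to 7.55 in WT LPS livers and 6.90 to 7.07 in WT untreated livers. Its gene Gata6, which other liver cells also express, was the only one of 6 called between the genotypes (0.44 ± 0.07, limma adjusted p = 0.0385). Against untreated livers Prg4 and Gata6 were called higher in both LPS groups, and the other 4 genes of the list in neither. Prg4 and Gata6 were also its brightest genes in untreated livers (9.68 and 8.93). The list level therefore cannot be read as peritoneal macrophages alone. The part of platelet and peritoneal macrophage RNA in the F13a1 values, and of neutrophil RNA in the Plac8 values after LPS, was not tested.

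**Figure D5:**
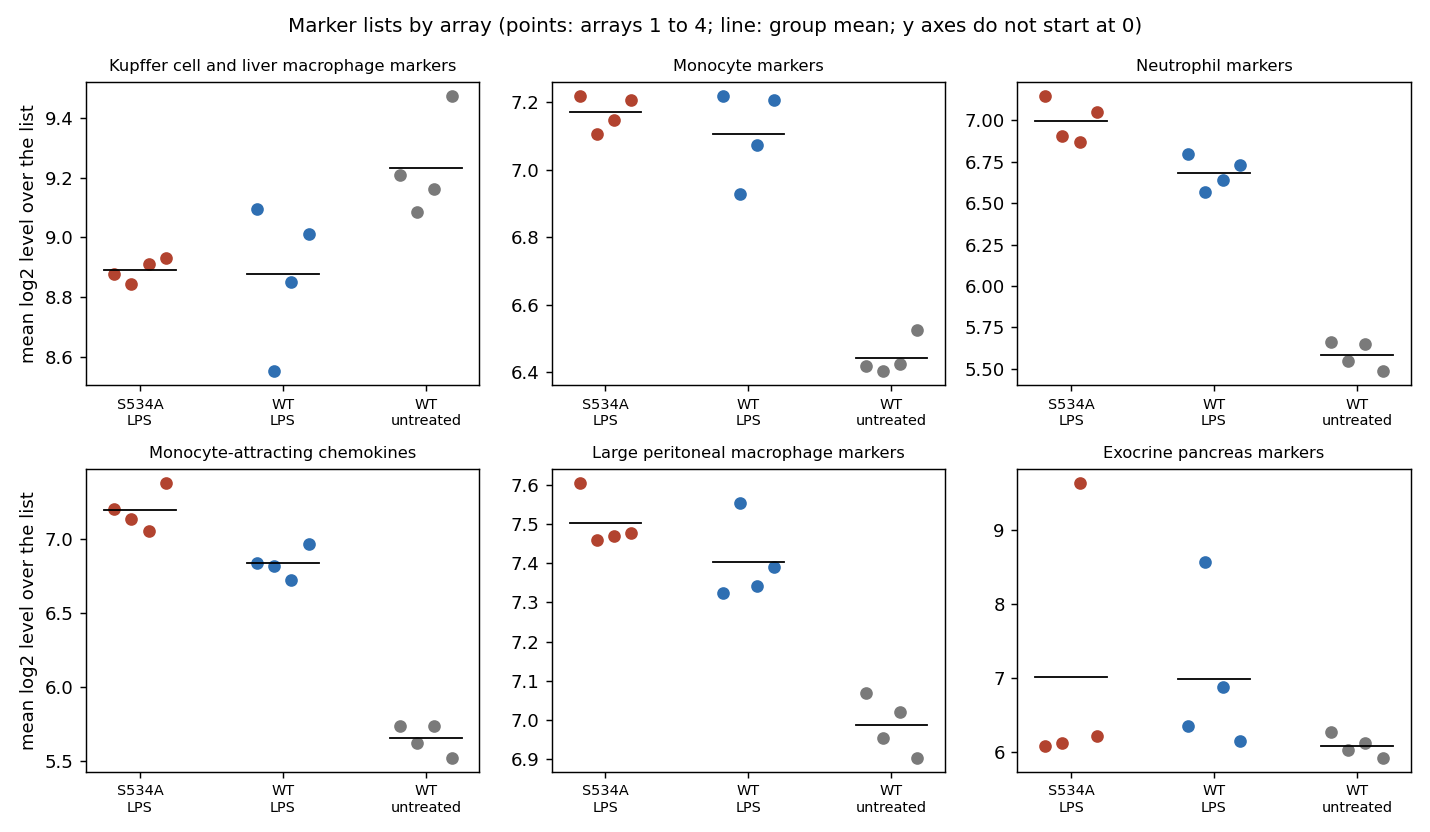
Mean log2 level over each of 6 marker lists (y axis) on the 4 arrays of each group, with the group mean as a line. Monocyte, neutrophil, chemokine and peritoneal macrophage lists lie higher in both LPS groups than in untreated livers, the Kupffer cell list lies lower apart from WT LPS replicate 1, which overlaps the untreated arrays, and the pancreas list is high on S534A LPS replicate 3 and WT LPS replicate 2.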

How the data were processed

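The deposited table holds log2 values for 35556 probe sets on 12 arrays, which the authors made with RMA, per the submitters' processing notes. RMA corrects background, quantile normalises and summarises probes per probe set. The sources used here name neither its version nor a genome build. Values ran from 3.43 to 14.48 and were used as deposited. No arrays shared more than 0.0422% identical values. Whether each array came from a separate animal is not stated, so the p-values measure only the spread among these samples, which may be technical, and precision is limited by the 12 arrays.

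Of the probe sets 21789 carried 1 gene symbol, 1621 several and 12146 none. Symbols were updated through Entrez identifiers (21698 matched RefSeq, GRCm38.p6). For the 999 genes with several probe sets the one with the highest mean was used. All 19938 genes entered limma 3.58.1 (R 4.3.3, lmFit and eBayes, 12 arrays in 3 groups, 9 residual and 3.54 prior degrees of freedom), with two-sided p adjusted over all genes and a call at an adjusted p under 0.05. The fit was tested on simulated data. The members, the 12 marker lists (122 of 137 symbols measured), the naming rule and the tests were chosen with earlier results of these data known. The rule named the 8 members, the 3 genes most like each, and, in the lists described in full, the 4 other genes with the smallest p in WT LPS against WT untreated and the 2 in S534A LPS against WT LPS. Adgre1, Cd68, Spn, Cx3cr1, Ace, Treml4, Ccl12 and the called genes of the remaining lists were named after their values were seen.

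Same-numbered arrays of the 2 LPS groups did not deviate together (r from -0.23 to 0.06 over genes), so the numbers were not used as pairs. Alternatives were each array left out, other filters, probe set rules, normalisations, eBayes settings, array weights, thresholds and a replicate block. Counts over the marker lists without single arrays were added after the data were seen.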

Additional observations from a re-analysis of the deposited data

Results flagged for a closer look

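Each group of 4 arrays was searched for an array that stands apart by Dixon's ratio (the gap to the nearest array over the range), for the 8 members and the 12 list levels. Of 60 groups 6 were found, where chance gives about 5%. Among the members this was Marco on S534A LPS replicate 4, at 8.42 against 7.67 to 7.78 on the other 3 arrays. Among the lists, given as mean log2 levels, it was the exocrine pancreas list on S534A LPS replicate 3 (9.64 against 6.09 to 6.22), the large peritoneal macrophage list on S534A LPS replicate 1 (7.60), the Kupffer cell regulators on S534A LPS replicate 4 (8.44) and on WT untreated replicate 4 (8.14), and the monocyte list on WT untreated replicate 4 (6.53). Without S534A LPS replicate 4 the Marco difference between the genotypes was -0.12, with an adjusted p of 1.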

How the results depend on the processing

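In the comparisons with untreated livers, the 3 members that fell and the 4 that rose kept direction and call in every setting tried, except that a filter on genes under the median level left F13a1 and Ccr2 out. Timd4 also passed with array weights and with repeated quantile normalisation (in WT, adjusted p = 0.0275 for each; in S534A, 0.0344 and 0.0395) and, in WT, at an adjusted p under 0.1. Between the genotypes 0 members were called in any of the 24 alternatives. There the count over all genes, 34, was 476 with array weights, 9 at an adjusted p under 0.01, 79 at an adjusted p under 0.1, 1 without the 3 arrays with pancreas transcripts, and 9 (without WT LPS replicate 3) to 121 (without WT LPS replicate 1) with single arrays left out. The replicate block gave 17 genes, with 2 of 4 numbers correlating best with themselves, and changed no member's call. In WT LPS against WT untreated livers the 4983 genes called were 3143 at an adjusted p under 0.01 and 3227 without the 3 arrays with pancreas transcripts. The WT LPS arrays left without those 3 were replicates 1 and 4. In that setting the uncalled genotype differences of Vsig4 (-0.46), Ccr2 (-0.34), Timd4 (-0.30) and Cd5l (-0.25) lay further below 0 than with all 12. That of Clec4f changed sign (-0.0504). Uncalled differences also changed sign with single arrays left out for Cd5l (-0.240 to 0.0509), Marco (-0.12 to 0.14), Timd4 (-0.125 to 0.0671) and Vsig4 (-0.27 to 0.11); the cause was not tested. Without those 3 arrays 11 Kupffer cell list genes and 8 monocyte list genes were called in WT LPS against WT untreated livers, and without WT LPS replicate 2 these were 12 and 9. Dim probe sets such as those of Ccr2 and F13a1 limit what can be seen of small differences.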
